A study of Mus musculus with 6 samples.

Results

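The complement components and receptors were taken as 9 genes, C1qa, C1qb, C1qc, C3, C4b, C3ar1, C5ar1, Itgam and Serping1, chosen by gene symbol. Each deposited row carries an Ensembl identifier, and all 9 genes had a row among the 21006 genes listed. Of these 9, 8 averaged 0.1 FPKM or more over the 6 samples and were tested, and C5ar1 (mean 0.096 FPKM) was not. FPKM is the number of sequenced fragments per kilobase of exon, scaled by the depth of the library.

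The samples were prefrontal cortex, the front part of the cerebral cortex, from wild type male C57BL/6 mice aged 18 months per the labels, although the sample titles carry 17M. The PND group (postoperative neurocognitive disorder, n = 3) had isoflurane anesthesia and an exploratory laparotomy, in which the abdomen was opened and its organs inspected, and then lidocaine cream and povidone iodine on the incision. The CON group (n = 3) had neither anesthesia nor operation as its treatment. The effects of anesthesia, of surgery and of the incision care therefore cannot be told apart. The mice had gone through behavioral tests before their tissue was collected. The last was a maze test that ended several days after the operation, and collection followed shortly after it. Per the study's methods, collection took place under deep isoflurane anesthesia, with saline flushed through the heart. Both groups therefore met isoflurane at collection, and only PND had met it earlier.

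Complement is a cascade of plasma and tissue proteins that tags targets for removal. C1q, built from the chains of C1qa, C1qb and C1qc, binds a target and through its proteases C1r and C1s cleaves C4, which leads to the cleavage of C3. Fragments of C3 stay on the target and are read by complement receptor 3, whose alpha chain (CD11b) is encoded by Itgam, while the small fragments C3a and C5a act through the G-protein-coupled receptors of C3ar1 and C5ar1. Serping1 encodes the C1 inhibitor, which blocks C1r and C1s. In brain, C1q, C3ar1, C5ar1 and Itgam are known mainly from microglia, the resident macrophages, C4b mainly from astrocytes and oligodendrocytes, and C1q and C3 are known for tagging synapses that microglia remove.

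The low FPKM of a sample moved in steps of 1 fragment, which gave 7192960 to 9388790 fragments per sample. Among genes with 1 annotated transcript, 93.8% to 94.4% of the low values lay within 0.05 of a whole fragment. The 9 genes rested on few fragments. C4b held the most, with 86 to 234 per sample, followed by C1qb with 28 to 134, and the others ranged down to 1 to 12 for C5ar1. Markers of microglia were present, with all 15 listed genes detected and Ctss above 26 FPKM in every sample. Markers of other sources were mixed. S100a8 (neutrophils) and Pf4 (border macrophages) were listed at 0 in all but 1 sample, whereas the border macrophage marker Mrc1 was at 0.791 to 1.12 FPKM. The 7 choroid plexus markers summed to 2.88 to 3.65 FPKM in PND and 1.48 to 2.98 FPKM in CON, with Ttr and Folr1 listed at 0 in 3 or more samples. Of that list, Sostdc1 passed the study's cut-off, an absolute log2 fold change above 1 with an unadjusted p below 0.05 (log2 fold change 1.38, unadjusted p = 0.0119). Its level was low, at 0.258 to 0.304 FPKM in PND and 0 to 0.0794 FPKM in CON. Clic6 was higher in every PND sample (1.51 to 2.14 against 0.701 to 1.49 FPKM). The other choroid plexus markers overlapped between the groups, and Otx2 was highest in CON replicate 1 (0.197 FPKM). Of 5 red blood cell markers 4 had a row, and their sum was 2.76 FPKM in PND replicate 1 and at most 0.191 FPKM in the other samples. The part of these markers in the complement values was not tested. Since the tissue was measured in bulk, fewer cells of a type and less RNA per cell cannot be told apart.

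C1qb had the highest level of the 9 genes, and C5ar1 the lowest. The values were compatible with division by all distinct exons of a gene, overlapping exons being counted repeatedly, which makes genes with several transcripts look lower. For levels between genes the fragments were therefore also divided by the longest transcript. On that scale, as means over the 6 samples in the same unit, C1qb stood at 8.98, C1qa at 4.199, C4b at 3.60, C1qc at 2.76 and Itgam at 1.34. Serping1 (0.743), C3ar1 (0.717), C3 (0.268) and C5ar1 (0.189) followed. The Itgam level counts only the fragments listed under Itgam, and with those of an overlapping gene model, described with Itgam, it was 3.28 in PND and 3.94 in CON, close to C4b. The order was the same in the deposited FPKM except that Serping1 (0.464 FPKM) lay below C3ar1 (0.717 FPKM). Each gene's range over the samples overlapped that of its neighbour in the order. Within each sample, however, C1qb lay above C1qa (ratio 1.48 to 4.6) and C3ar1 above C3. The other neighbouring pairs did not keep their order in every sample.

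**Figure D1:**
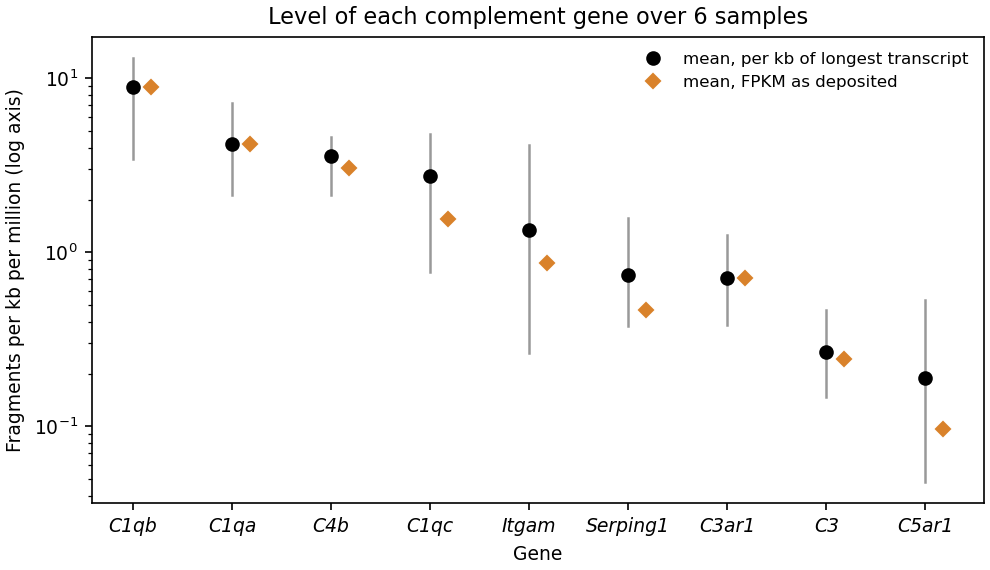
Level of the 9 complement genes, in order, on a log axis. Black circles are means over 6 samples in FPKM computed on the longest transcript, with grey lines from the lowest to the highest sample, and orange diamonds are the means of the FPKM as deposited. C1qc (2.76 against 1.55 FPKM) and C5ar1 (0.189 against 0.096 FPKM) differ most between the scales.

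To ask whether complement mRNA was altered by the procedure, the groups were compared in limma on log2(FPKM + 0.1), and fold changes are on this scale, which understates changes of low genes. None of the 8 tested complement genes passed that cut-off (0 of 8), whereas 1.33% of all 18185 tested genes did. An unadjusted p below 0.05 was found for 1 of the 8, C4b, which was higher in PND. Of all genes 3.13% had such a p, 1.73% with the higher level in PND. The adjusted p of each complement gene was 0.9999, and 0.011% of all genes had an adjusted p below 0.05. By voom on recovered fragments, another method of limma, 0 of the 8 passed the cut-off and 1 had an unadjusted p below 0.05, as did 2.79% of all genes. The log2 fold change was above 0 for 6 genes and below 0 for 2 (52.4% of all genes were above 0), with a median of 0.07 beside 0.01 over all genes. The standard errors had a median of 0.46, beside 0.27 over all genes, and the 95% intervals of 7 of the 8 genes included 0.

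**Figure D2:**
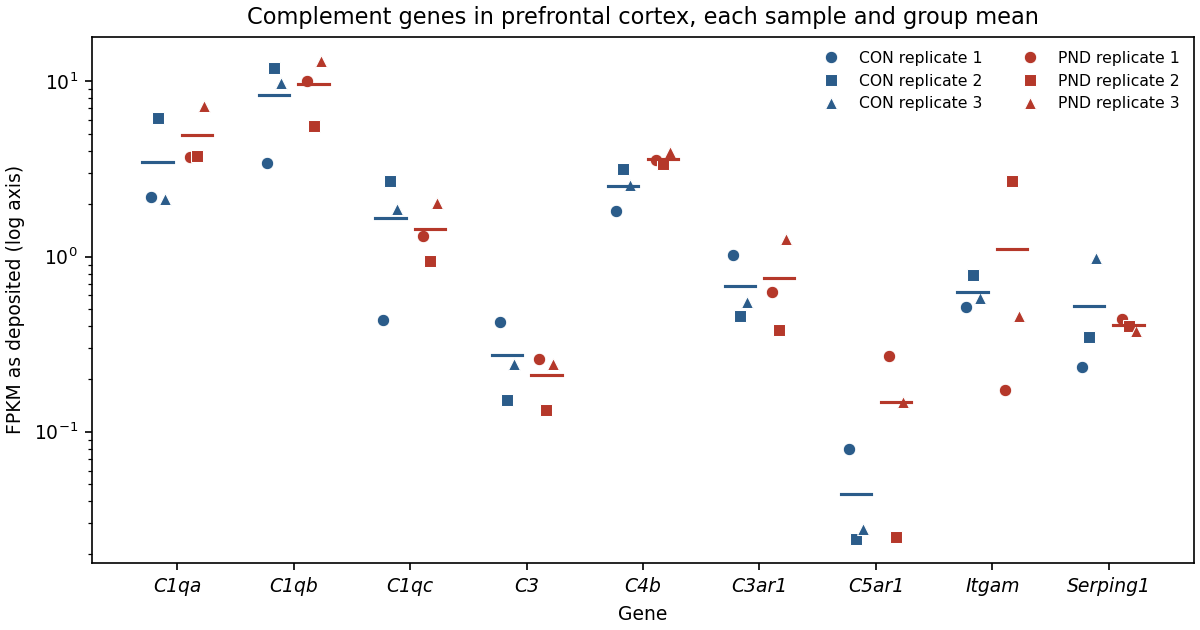
FPKM as deposited of the 9 complement genes in each of 3 CON (blue) and 3 PND (red) samples on a log axis. Symbols mark the replicate number and horizontal lines the group mean. Only for C4b do the 3 PND samples all lie above the 3 CON samples, and Itgam has a single high PND value at 2.70 FPKM.

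The C1q chains varied more within the groups than between them. C1qa was at 3.70, 3.77 and 7.27 FPKM in PND and at 2.18, 6.14 and 2.14 FPKM in CON. C1qb was at 10.1, 5.58 and 13.1 FPKM in PND and at 3.43, 11.8 and 9.84 FPKM in CON. C1qc was at 1.31, 0.942 and 2.03 FPKM in PND and at 0.435, 2.68 and 1.88 FPKM in CON. PND replicate 3 and CON replicate 2 were high for all 3 chains, CON replicate 1 was low for all 3, and CON replicate 3 was low for C1qa only, so the groups overlapped for each chain. C1qa averaged 4.91 ± 2.04 FPKM in PND against 3.49 ± 2.29 in CON (SD, n = 3 each). For C1qa the log2 fold change was 0.59 (SE 0.45, unadjusted p = 0.230). For C1qb it was 0.29 (SE 0.50, unadjusted p = 0.578) and for C1qc 0.03 (SE 0.61, unadjusted p = 0.960). The C1qc mean ran the other way on the FPKM scale, at 1.43 ± 0.554 in PND and 1.67 ± 1.14 in CON (SD, n = 3 each). Without CON replicate 1 both values turned negative, to -0.25 for C1qb and -0.68 for C1qc. The 95% intervals ran from -0.46 to 1.64 for C1qa, from -0.87 to 1.45 for C1qb and from -1.40 to 1.46 for C1qc, and so a change of 2-fold in either direction lay within that of C1qc. Single samples moved the value of C1qa in both directions. Without CON replicate 2 the log2 fold change was 1.08 (unadjusted p = 0.0140), past the study's cut-off. It was 0.27 without PND replicate 3 (unadjusted p = 0.586), 0.35 without CON replicate 1 and 0.34 without CON replicate 3.

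The chains of C1q lie side by side within 18675 bases of chromosome 4 (GRCm38, 136880129 to 136898803, all on the minus strand), in the order C1qb (ENSMUSG00000036905), C1qc (ENSMUSG00000036896) and C1qa (ENSMUSG00000036887). C1qb and C1qc followed each other most closely over the samples, and the sequences before their starts are shown for that reason. The root mean square difference of their centred log2 values was 0.25, C1qb ranked 69 of 12386 genes in likeness to C1qc, and C1qc ranked 194 in likeness to C1qb. C1qa was less like either of them, at 0.55 from C1qb and 0.64 from C1qc. The promoters, here 250 bases before to 50 after the start site (RefSeq, GRCm38.p6), were found for 6 of the 9 genes. Capitals mark the letters GAGGAA, a core bound by the myeloid factor PU.1, or their reverse complement.
C1qb, chr4:136886151-136886450, minus strand: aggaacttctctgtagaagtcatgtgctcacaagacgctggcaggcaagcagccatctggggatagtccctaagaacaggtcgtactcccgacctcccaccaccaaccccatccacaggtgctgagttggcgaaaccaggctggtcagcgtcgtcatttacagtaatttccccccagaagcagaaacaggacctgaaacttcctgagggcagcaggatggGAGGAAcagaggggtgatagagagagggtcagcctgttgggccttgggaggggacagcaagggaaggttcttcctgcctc
C1qc, chr4:136892865-136893164, minus strand: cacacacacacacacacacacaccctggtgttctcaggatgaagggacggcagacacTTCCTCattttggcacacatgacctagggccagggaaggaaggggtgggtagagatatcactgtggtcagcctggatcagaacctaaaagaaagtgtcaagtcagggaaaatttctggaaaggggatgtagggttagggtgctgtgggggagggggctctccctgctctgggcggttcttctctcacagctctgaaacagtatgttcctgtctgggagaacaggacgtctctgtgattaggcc
Counted from the start site, the match lay at -30 in C1qb and at -193 in C1qc. The Itgam promoter held 3 matches, and the windows of C3, C3ar1 and C5ar1 held 0. Of all 32851 promoters 28.3% hold these letters on either strand, and a match is a description of the sequence, not a binding site. A C/EBP motif (TTNNGCAA) was found in C3 and in 10.8% of all promoters. A STAT motif (TTCNNNGAA, 8.30% of all promoters) and the interferon-stimulated response element (3.44%), searched on both strands as well, were found in 0 of the 6.

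The variation of the C1q chains between samples ran alongside that of genes rich in G and C. The transcripts of C1qa, C1qb and C1qc have a GC content of 59.5%, 57.4% and 57.5%, against a median of 47.7% over the 12323 genes averaging 1 FPKM or more. Their mean centred log2 values were 0.08, -0.34 and 0.72 in PND and -1.14, 0.72 and -0.03 in CON. The median over the 1233 genes of the highest GC decile was 0.11, -0.30 and 0.37 in PND and -0.56, 0.49 and -0.04 in CON, which puts the samples in the same order except for PND replicate 3 and CON replicate 2, the highest pair of both. The 5 genes nearest to the C1q profile were Nrxn2, Mgat5b, Kifc2, Scaf1 and Tuba1b, at root mean square differences of 0.07 to 0.10 among 12387 genes, and their GC contents were 55.2% to 63.0%. Nrxn2 encodes a presynaptic adhesion protein and Tuba1b an alpha tubulin. The ranked microglia markers ran from 754 (Tmem119, GC content 59.1%) to 11741 (P2ry12, 38.6%). Their ranks did not follow GC content throughout, as Csf1r (54.5%) ranked 793 and Tyrobp (54.8%) ranked 8575. When the smooth of each sample's deviations on GC content was subtracted, the SD over the 6 samples went from 0.71 to 0.46 for C1qa, from 0.73 to 0.43 for C1qb and from 0.86 to 0.56 for C1qc. The groups still overlapped for each chain after this correction.

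**Figure D3:**
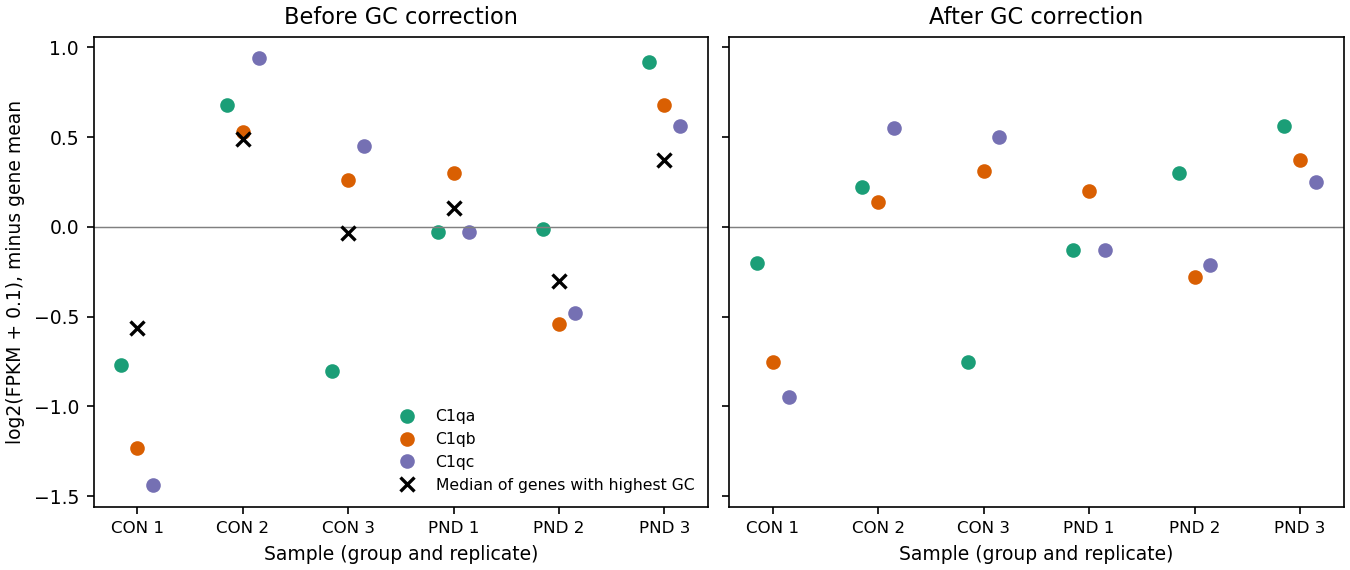
Centred log2(FPKM + 0.1) of C1qa, C1qb and C1qc in each sample (CON on the left and PND on the right of each panel), before and after subtraction of the dependence on GC content. Black crosses are the median of the 1233 genes with the highest GC content, lowest in CON replicate 1 (-0.56) and highest in CON replicate 2 (0.49). The spread of the chains is smaller in the right panel, where C1qb has an SD of 0.43 in place of 0.73.

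C4b, which encodes the C4 cleaved by the classical pathway (ENSMUSG00000073418, chr17:34728380-34743882, minus strand), was the gene whose groups did not overlap. It was at 3.55, 3.35 and 3.96 FPKM in PND and at 1.82, 3.18 and 2.56 FPKM in CON, so that each PND sample lay above each CON sample. Non-overlapping groups were found for 1 of the 8 tested complement genes and for 7.66% of all genes, with PND above in 3.78% and PND below in 3.88%. C4b averaged 3.62 ± 0.308 FPKM in PND against 2.52 ± 0.678 in CON (SD, n = 3 each). This was a log2 fold change of 0.54 (SE 0.23, 95% interval 0.0045 to 1.07, unadjusted p = 0.0485, adjusted p = 0.9999). The unadjusted p was at or above 0.05 in 10 of 19 alternatives, from 0.0111 with the GC correction to 0.135 without PND replicate 3, and the direction was the same in all 19. After the GC correction the PND samples still lay above the CON samples, at 0.16, 0.38 and 0.16 against -0.31, -0.22 and -0.17 in centred log2 values.

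C4b has a near copy, C4a, 65209 bases away on chromosome 17, so fragments could be divided between the genes. Over 5367 aligned transcript bases the identity was 96.1%, and 35.2% of the 50-base stretches of C4b occur in C4a as well. The 90 bases of C4b with the most differences lie in coding exon 21 of 41 and are shown beside C4a, with the 14 differing bases in capitals (GENCODE M21).
C4b, chr17:34735430-34735519, minus strand: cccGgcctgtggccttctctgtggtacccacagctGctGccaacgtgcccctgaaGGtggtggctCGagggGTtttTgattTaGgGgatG
C4a, aligned stretch: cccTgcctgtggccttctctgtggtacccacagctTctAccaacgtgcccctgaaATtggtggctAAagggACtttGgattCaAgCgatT
C4a took 1.77% to 8.43% of the fragments of both genes, with 3 to 15 per sample. For C4a itself the fold change was -0.08 (log2, unadjusted p = 0.874). With the FPKM of both genes summed, the log2 fold change was 0.52 (SE 0.24, unadjusted p = 0.0647).

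Markers of astrocytes and oligodendrocytes, known sources of C4b in brain, overlapped between the groups as sums. The 8 astrocyte markers summed to 334 to 453 FPKM in PND and 288 to 579 FPKM in CON, and the 6 oligodendrocyte markers to 220 to 277 and 250 to 273 FPKM. Of the astrocyte markers, Gfap, the intermediate filament of astrocytes, was higher in every PND sample (17.7 to 24.7 against 13.0 to 14.9 FPKM, unadjusted p = 0.00294), and Aqp4, their water channel, was lower in every PND sample (21.5 to 25.6 against 26.8 to 34.5 FPKM, unadjusted p = 0.0275). The 6 endothelial markers summed to 28.3 to 36.8 FPKM in PND and 24.96 to 27.8 FPKM in CON, and the 7 border macrophage markers to 2.56 to 3.18 FPKM and 2.08 to 2.14 FPKM. In these lists only Ly6c1 (4.27 to 7.11 against 3.12 to 3.35 FPKM) and F13a1 (0.515 to 0.835 against 0.306 to 0.460 FPKM) were higher in every PND sample. The endothelial markers Flt1 and Kdr were at log2 fold changes of -0.05 and -0.06. The part of these marker lists in the C4b values was not tested.

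C3, the central component of the cascade (ENSMUSG00000024164, chr17:57203970-57228136, minus strand), was low in every sample. It was at 0.259, 0.134 and 0.244 FPKM in PND and at 0.423, 0.151 and 0.245 FPKM in CON, from 6 to 18 fragments. CON replicate 1 was the highest and both groups had their lowest sample in replicate 2, so the groups overlapped. The log2 difference was -0.22 (SE 0.42, 95% interval -1.20 to 0.77, unadjusted p = 0.620).

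The anaphylatoxin receptors C3ar1 (ENSMUSG00000040552, chr6:122847138-122856161) and C5ar1 (ENSMUSG00000049130, chr7:16246743-16259540), both on the minus strand, were low as well. C3ar1 was at 0.630, 0.382 and 1.26 FPKM in PND and at 1.02, 0.456 and 0.549 FPKM in CON, with the highest value in PND replicate 3 and the next in CON replicate 1. For C3ar1 the log2 difference was 0.08 (SE 0.46, 95% interval -1.002 to 1.16, unadjusted p = 0.866). C5ar1 was at 0.270, 0.0252 and 0.148 FPKM in PND and at 0.0797, 0.0244 and 0.0277 FPKM in CON. These values stood for 12, 1 and 7 fragments in PND and 3, 1 and 1 in CON, and 4 of the 6 samples were at or under the floor of 3 fragments. PND replicates 1 and 3 lay above all CON samples and PND replicate 2 did not. Summed over each group and scaled by depth, 20 against 5 fragments gave a ratio of 3.49, with an exact binomial 95% interval of 1.27 to 11.91 that covers counting error only and not the spread between samples. The ratio was 2.11 without PND replicate 1, which held 12 of the 20 fragments, and 5.87 without CON replicate 1. In a fit without the filter on low values C5ar1 had an unadjusted p = 0.179. Of 9 markers of blood monocytes and neutrophils, which also carry these receptors, 2 had a row, and they summed to 0.0228 to 0.230 FPKM in PND and 0.0198 to 0.0612 FPKM in CON. Among 15 microglia markers, which mark the known source of these receptors and of C1q, the sum was 80.5 to 92.9 FPKM in PND and 94.1 to 99.4 FPKM in CON, with P2ry12 the clearest (4.61 to 7.06 against 7.68 to 10.7 FPKM, unadjusted p = 0.00767). The part of these markers in the values of C1q and of the receptors was not tested.

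Itgam, the CD11b chain of complement receptor 3 (ENSMUSG00000030786, chr7:128062640-128118491, plus strand), had the highest ratio of highest to lowest sample among the 9 genes, at 15.7. It was at 0.172, 2.70 and 0.458 FPKM in PND and at 0.518, 0.783 and 0.579 FPKM in CON. PND replicate 2 lay above and the other PND samples below every CON sample. On the log2 scale the difference was 0.07 (SE 0.78, 95% interval -1.76 to 1.90, unadjusted p = 0.934), and without PND replicate 2 it was -0.88 (unadjusted p = 0.0897).

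The high value of PND replicate 2 came together with a value of 0 for an overlapping gene model. Gm49368, annotated as protein-coding on the same strand, shares 3450 exon bases with Itgam, and 72.4% of the 50-base stretches of the longest Itgam transcript occur in it. Itgam held 11, 154 and 31 fragments in PND and 28, 46 and 30 in CON. Gm49368 held 69, 0 and 134 fragments in PND and 121, 87 and 108 in CON, so it was listed at 0 in the very sample where Itgam was high. The sum of both was 80, 154 and 165 fragments in PND and 149, 133 and 138 in CON. As FPKM on the longest Itgam transcript, the sum was 3.28 ± 1.19 in PND and 3.94 ± 0.403 in CON (SD, n = 3 each), with PND replicate 1 lowest at 1.93. The log2 fold change of the sum was -0.32 (SE 0.29, 95% interval -1.01 to 0.36, unadjusted p = 0.301), and without PND replicate 1 it was 0.01 (unadjusted p = 0.968). The summing was chosen after the values were seen.

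**Figure D4:**
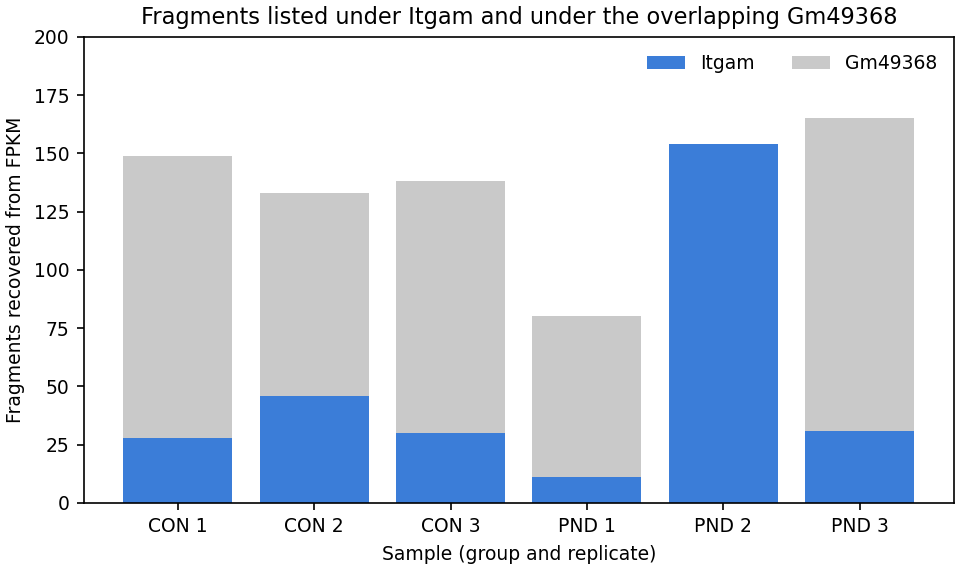
Fragments per sample listed under Itgam (blue) and under the overlapping gene model Gm49368 (grey, stacked), recovered from the FPKM. In PND replicate 2 all 154 fragments are listed under Itgam and 0 under Gm49368, while the sums of the other samples are 80 to 165.

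Itgb2, the partner chain of Itgam, was at 0.339, 0.570 and 0.731 FPKM in PND and at 0.143, 0.816 and 0.358 FPKM in CON. The groups overlapped, and the log2 fold change was 0.42 (unadjusted p = 0.452).

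Serping1, the inhibitor of C1r and C1s (ENSMUSG00000023224, chr2:84765387-84775444, minus strand), was even over the PND samples and uneven over the CON samples. It was at 0.439, 0.402 and 0.376 FPKM in PND and at 0.236, 0.347 and 0.982 FPKM in CON. CON replicate 3 stood above all others, and the other CON samples lay below all PND samples. The values rested on 5 to 20 fragments. Serping1 had a log2 fold change of -0.11 (SE 0.47, 95% interval -1.21 to 0.98, unadjusted p = 0.819), and without CON replicate 3 it was 0.38 (unadjusted p = 0.309). The proteases it blocks were at log2 fold changes of -0.49 for C1ra (unadjusted p = 0.312) and -0.38 for C1s1 (unadjusted p = 0.323). With a sample left out these ran from -0.90 (without CON replicate 1) to -0.08 (without CON replicate 2) for C1ra and from -0.63 (without PND replicate 1) to -0.22 (without CON replicate 3) for C1s1.

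Of 47 other complement genes, 36 had a row and 26 were tested. None passed the cut-off (0 of 26) and none had an unadjusted p below 0.05 in limma, while 1.33% and 3.13% of all genes did. The log2 fold change was above 0 in 17 and below 0 in 9, or 65.4% above 0 beside 52.4% of all genes, with a median of 0.07. By role, 4 of 7 tested genes of classical and lectin initiation were above 0, 8 of 13 regulators and 4 of 4 other receptors, and the tested genes of the alternative and terminal pathways were 1 each, Cfp (0.07) and C7 (-0.15). Hc, which encodes C5, was listed at 0 in 3 samples and reached 0.0385 FPKM, and C2, a protease of the C3 convertase, was below the filter as well, at 0.0236 to 0.140 FPKM.

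Among the regulators Clu, which encodes the secreted chaperone and terminal pathway inhibitor clusterin, was the most abundant, at 24.1 to 32.1 FPKM in PND and 23.8 to 27.1 FPKM in CON (log2 fold change 0.16, unadjusted p = 0.275). The value for Clu was 0.0539 without PND replicate 1, 0.26 without PND replicate 2 and 0.0808 with the GC correction. Csmd1, a membrane regulator of neurons, was at 12.4 to 12.6 FPKM in PND and 11.2 to 14.2 FPKM in CON (log2 fold change 0.01, unadjusted p = 0.945).

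**Figure D5:**
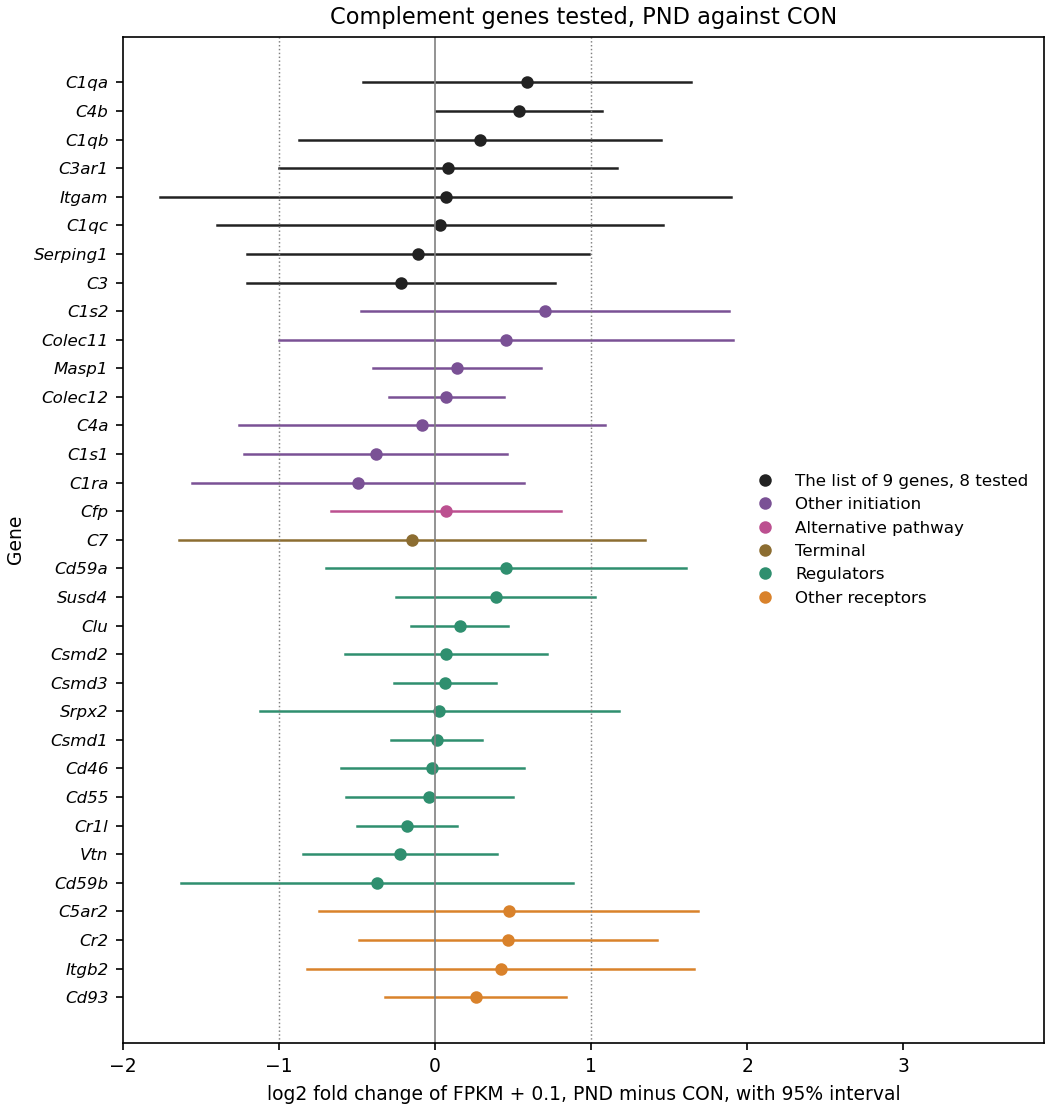
Log2 fold changes, PND minus CON, of FPKM + 0.1 for the 8 tested complement genes of the list (black) and 25 of the 26 other complement genes, grouped by role, with 95% intervals from limma. Dotted lines mark a log2 fold change of 1 in either direction, and apart from C4b every interval drawn includes 0. The remaining gene is not reported here.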

How the data were processed

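Ribosomal RNA was removed and mRNA libraries were sequenced on an Illumina instrument. The authors filtered reads with Seqtk, mapped them with HISAT2, counted fragments per gene with StringTie, scaled them by TMM and deposited FPKM. The submitters' processing notes list Bowtie 0.12.2, which the methods give for the miRNA reads, and the builds mm8 and mm9 without a role. The build and annotation behind the mRNA values and the use of strand in counting are not given in the sources used here. Coordinates come from GENCODE M21 (GRCm38), which held 20877 of 21006 identifiers. Symbols were matched for 20866.

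PND was compared with CON (3 samples each) using limma 3.58.1 (R 4.3.3), on log2(FPKM + 0.1), two-sided, with lmFit and trended eBayes, over 18185 genes averaging 0.1 FPKM or more. Adjusted p-values follow Benjamini and Hochberg over these genes. Named were all 9 members, C4a, Itgb2, C1ra, C1s1, C2, Hc, Clu, Csmd1 and the 5 genes nearest to the C1q profile. Some genes of the lists are not reported here. Cfp, C7, Gm49368 and the markers named were singled out after their values were seen. The members and lists were chosen with earlier results of these data known.

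Fragments were recovered as FPKM times length times depth. For genes with several transcripts, 76.8% of low values were within 0.05 of a whole number when all distinct exons were summed, against 10.9% for merged exons. The length of C5ar1 (5001 bases) was read from its own steps. On simulated fragments, with 17820 genes tested in total, 188 of 197 genes changed 4-fold passed the cut-off (95.4%), as did 130 unchanged genes. These fragments were drawn with the same spread for every gene and with no difference between samples other than depth. The share recovered therefore does not give the power for the complement genes, whose standard errors had a median of 0.46, beside 0.27 over all genes. The study's methods give 3 randomly chosen mice per group for sequencing. No pair of samples held identical values (0 pairs). Alternatives were other pseudocounts, filters and scalings, a GC correction (loess span 0.3), a replicate block, voom on recovered fragments, C4a and C4b summed, and each sample left out. Sequences were aligned with Biopython 1.88.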

Additional observations from a re-analysis of the deposited data

How the results depend on the processing

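The count of 241 genes past the cut-off depended on the settings. At a pseudocount of 1 it was 25, among genes averaging 1 FPKM or more 59, and at p below 0.01 88, and it ran from 240 to 402 with each sample left out. The complement genes of the list with an unadjusted p below 0.05 numbered 1, and 0 with a pseudocount of 1, without the filter, without the intensity trend, with the replicate block or at p below 0.01. With a sample left out their number was 0 to 2, and the number past the cut-off was 0 to 1. Of the other complement genes 1 had a p below 0.05 with the GC correction, and 0 to 1 with a sample left out. For C4b the unadjusted p was 0.0111 to 0.135 over 19 alternatives, and with a sample left out the log2 fold change was 0.33 to 0.72. The cause of these shifts was not tested.

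Whether the replicate numbers pair the samples was not settled. Correlations of the deviations from the group means across 12387 genes were -0.049, -0.451 and 0.027 for equal numbers. For unequal numbers they ran from -0.418 to 0.427, with a mean of 0.079. Deviations within a group cancel out over its samples, which ties these correlations to each other, so they cannot decide the question. With the replicate block C4b had an unadjusted p = 0.0788, with 0.0321 when the GC correction was added.

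Directions of several genes without a p below 0.05 in the main fit were not stable. Those of C1qa, Clu, C1ra and C1s1 were the same in every alternative (18 of 18 for C1qa and Clu, 17 of 17 for C1ra and C1s1). C1qc was at -0.0524 with a pseudocount of 1, at -0.0091 with quantile normalization and at -0.0616 with the GC correction, with or without the block. Itgam was at -0.0301 with a pseudocount of 0.01, at -0.0064 with quantile normalization, at -0.0955 with voom and at -0.324 when summed with Gm49368, with or without the block. Csmd1 was at -0.0055 with median centring and at -0.0251 with the GC correction, with or without the block. With a sample left out the log2 fold change ran from 0.27 to 1.08 for C1qa, from -0.25 to 0.63 for C1qb, from -0.68 to 0.51 for C1qc, from -0.47 to 0.0588 for C3, from -0.32 to 0.43 for C3ar1, from -0.88 to 0.80 for Itgam (for the sum -0.526, -0.454, -0.408, -0.295, -0.269 and 0.008), from -0.46 to 0.38 for Serping1, from -0.35 to 0.24 for C4a, from -0.0503 to 0.91 for Itgb2 and from -0.065 to 0.10 for Csmd1. These genes held between 3 and 154 fragments per sample, except Csmd1, which held 2049 to 2839.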
